A study of Mus musculus with 4 samples.

Results

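The genes described here encode the NF-κB transcription factor subunits and the proteins that restrain them, measured in mouse macrophages whose floxed gene for the kinase PERK was or was not exposed to Cre. The 10 genes were taken by name: the subunit genes Rela, Relb, Rel, Nfkb1 and Nfkb2, and the inhibitor genes Nfkbia, Nfkbie, Nfkbiz, Tnfaip3 and Bcl3. All 10 were listed in every library, among 15114 Entrez-numbered genes listed in any of them. RNA was sequenced from bone marrow-derived macrophages of C57BL/6 mice, grown with M-CSF (20 ng/mL, 7 days) and then kept for 24 h with interleukin 4 (IL-4) at 20 ng/mL. The wild-type group held 2 libraries from mice with the genotype Eif2ak3 fl/fl, in which the PERK gene is flanked by loxP sites and intact. The knockout group held 2 libraries from LysMcre x Eif2ak3 fl/fl mice, in which Cre recombinase is made from the lysozyme M locus of myeloid cells. Both groups thus carried the floxed alleles and had IL-4, and the labels set them apart as PERK wild type and knockout by the presence of Cre. No unstimulated library is analysed here, so the values show levels after IL-4 and not a response to it.

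NF-κB is a family of dimers built from the products of the 5 subunit genes, which share a Rel homology domain for DNA binding. RelA, c-Rel and RelB carry transactivation domains, while Nfkb1 and Nfkb2 encode the precursors p105 and p100 that are processed to p50 and p52. In resting cells the inhibitors IκBα (Nfkbia) and IκBε (Nfkbie) hold dimers in the cytoplasm until the IκB kinase complex marks them for breakdown. Several of the inhibitor genes are themselves NF-κB targets, so that activation in macrophages, for instance through Toll-like or tumour necrosis factor receptors, is followed by feedback. A20 (Tnfaip3) edits ubiquitin chains upstream of the kinase complex, and IκBζ (Nfkbiz) and BCL-3 (Bcl3) are nuclear IκB proteins that bind p50 or p52 and can raise or lower transcription. Activity of the pathway is set largely by protein modification and location, which transcript levels do not show.

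The stretches shown next lie beside the start sites of member genes and hold the κB consensus, the decameric element that NF-κB dimers bind. The members were taken by name and not by sequence. Several of the inhibitor genes are known NF-κB targets, however, so κB matches beside them are not independent of that choice. RefSeq promoter windows on GRCm38.p6 (250 bases before and 50 after a start, 300 in all) were present for 7 of the 10 genes: Rela, Rel, Nfkb2, Nfkbia, Nfkbie, Tnfaip3 and Bcl3. Both strands were searched, and overlapping matches were merged. The consensus was found for 6 of these 7 genes, all but Rela, in 8 of their 10 windows, while 4.51% of all 32851 windows held it, and 5.14% of the 27025 genes held it at any start. The windows are not all separate: those of Nfkb2 at chr19:46305445-46305744 and chr19:46305680-46305979 overlap and share a match. A match describes these letters and does not show that a factor binds there. Capitals mark the κB matches, and each line reads 5′ to 3′ on the strand of the gene.
Rel, chr11:23771027-23771086, minus strand: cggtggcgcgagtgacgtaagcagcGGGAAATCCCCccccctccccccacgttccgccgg
Nfkb2, chr19:46304677-46304736, plus strand: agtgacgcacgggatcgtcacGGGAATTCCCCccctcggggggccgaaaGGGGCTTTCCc
Nfkbia, chr12:55492648-55492747, minus strand: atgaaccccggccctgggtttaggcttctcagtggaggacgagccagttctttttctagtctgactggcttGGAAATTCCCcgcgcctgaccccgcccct
Nfkbie, chr17:45555569-45555628, plus strand: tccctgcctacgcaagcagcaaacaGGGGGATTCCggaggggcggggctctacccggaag
Tnfaip3, chr10:19015411-19015470, minus strand: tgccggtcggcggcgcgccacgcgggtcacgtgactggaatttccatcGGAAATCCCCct
Bcl3, chr7:19822734-19822763, minus strand: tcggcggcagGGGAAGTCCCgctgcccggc

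The Nfkbia match began 29 bases before the annotated start, the Nfkbie match 106 bases and the Rel match 92 bases before it. Nfkb2 held a match beginning 39 bases before the start shown and another at 11 bases, and its other annotated starts held matches too. Tnfaip3 held matches beginning 125 and 12 bases before the start shown, of which the nearer is printed, and none at its other annotated start. The Bcl3 match lay just after the start. The values below differ among these genes: Nfkbia had lower and Bcl3 higher values in both knockout libraries, and those of Rel and Nfkb2 overlapped.

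The libraries as a whole set limits on these values. FPKM are fragments scaled to gene length and to the mapped fragments of a library. Eif2ak3 itself gave 10.9 and 8.88 FPKM for wild-type cells against 6.55 and 4.88 FPKM for knockout cells, replicate 1 before replicate 2, as throughout. The knockout mean was thus 57.8% of the wild-type mean (limma unadjusted p = 0.0068, adjusted 0.776), so most of the transcript signal remained. These FPKM cover the whole gene, no value for the floxed part alone was read, and loss of PERK was not measured. Entrez-numbered genes held between 54.8% and 58.9% of all FPKM in 3 libraries and 41.1% in knockout replicate 2, which listed 80375 features against 48335 to 53411 in the others. The median log2 change over the 9501 tested genes (mean of at least 1 FPKM), knockout minus wild type, was -0.14 as deposited and -0.0042 after scaling by median ratios. All log2 changes that follow are on the log2(FPKM + 1) scale and relative to that median gene, whereas p-values come from the deposited values unless scaling is named. Macrophage markers summed to between 3989 and 6083 FPKM over 11 genes in each library, with levels that differed among them. Lyz2, the lysozyme M gene, gave 627 and 699 FPKM for wild-type cells against 253 and 201 FPKM for knockout cells. The other markers overlapped between the genotypes, Fcgr1 being low in wild-type replicate 1, at 7.27 FPKM against 25.5 to 34.0 FPKM. Of the other marker lists, neutrophil markers summed to at most 3.70 FPKM, B cell markers to at most 2.33 FPKM, and T cell, stromal, mast cell and erythroid markers to at most 0.59 FPKM each, with Elane, Retnlg, Cd209a, Trac, Cpa3, Mcpt8, Hba-a1 and Alas2 at 0 in every library. The dendritic cell list summed to between 160 and 202 FPKM through Itgax, which macrophages also express, and to at most 1.5 FPKM without it.

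None of the 8 tested members differed between the genotypes by limma at an adjusted p of 0.05 over all genes (0 of 8), nor at an unadjusted p under 0.05 (0 of 8). Across all 9501 tested genes, 0.0211% passed the adjusted threshold and 4.22% the unadjusted one. The members' median log2 change was 0.05 relative to the median gene and -0.09 as deposited, with 5 members above the median gene and 3 below. Nfkbia was the tested member whose knockout libraries both lay below both wild-type libraries, 1 of 8, where 35.6% of all tested genes did so as deposited and 14.1% after median-ratio scaling. No tested member had both knockout libraries above as deposited, where 4.14% of tested genes did, and 1 did after scaling, Tnfaip3, against 15% of tested genes. Nfkbiz and Bcl3 had means under 1 FPKM and were not tested in that fit. No label says that the libraries of a genotype came from separate mice or cultures, so the p-values measure only the spread between these libraries, which may be technical.

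Per unit length, the members differed widely in level. Nfkb1 was highest, at a mean of 36.6 FPKM over the 4 libraries, followed by Nfkbia at 16.7, Rela at 15.2, Rel at 14.3, Nfkb2 at 10.7 and Tnfaip3 at 8.11 FPKM. Nfkbie at 2.96 and Relb at 2.45 FPKM were lower, and Bcl3 at 0.953 and Nfkbiz at 0.243 FPKM were lowest. The ranges of Nfkb1 and Nfkbia over the 4 libraries did not overlap, nor did those of Rel and Nfkb2, of Tnfaip3 and Nfkbie, of Relb and Bcl3, or of Bcl3 and Nfkbiz. Neighbours whose ranges overlapped were Nfkbia and Rela, Rela and Rel, Nfkb2 and Tnfaip3, and Nfkbie and Relb. Rela nevertheless exceeded Rel in 4 of 4 libraries, and Nfkbia exceeded Rela in 3 of 4, the exception being knockout replicate 2.

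**Figure D1:**
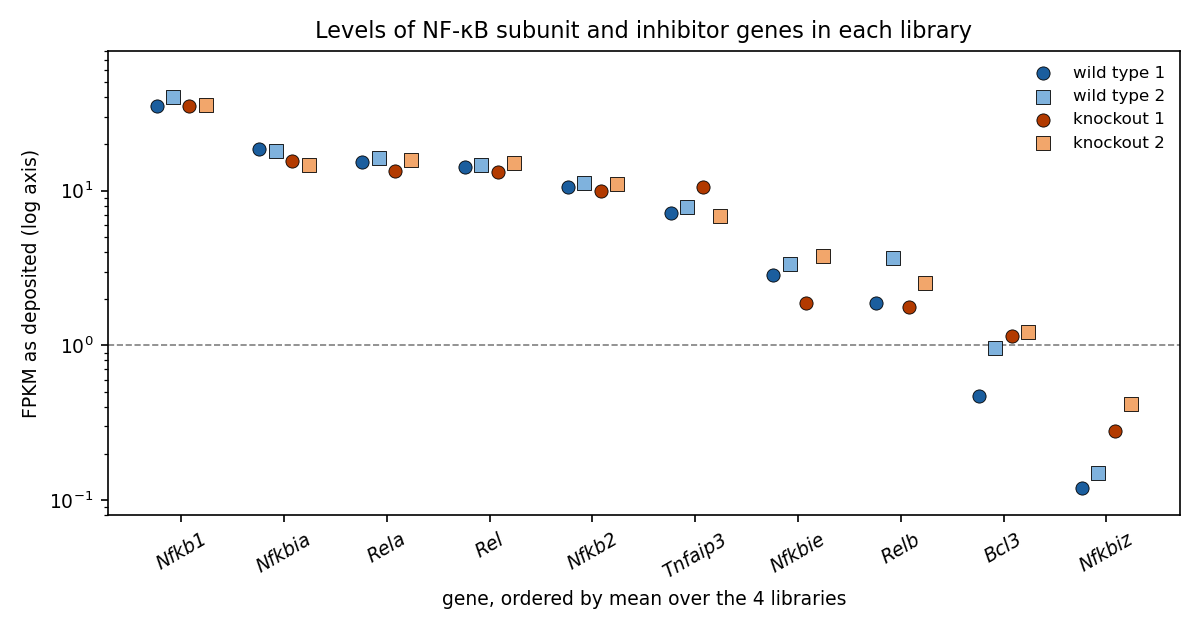
FPKM as deposited (log axis) of the 10 genes in each of the 4 libraries, ordered by their mean. Circles are replicate 1, squares replicate 2, blue wild type and orange knockout, and the dashed line marks the minimum mean of 1 FPKM for testing. Nfkb1 stands at the top near 36.6 FPKM and Nfkbiz at the bottom near 0.243 FPKM, and for Nfkbiz and Bcl3 both knockout points lie above both wild-type points.

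Among the transactivating subunits of the classical pathway, Rela and Rel overlapped between the genotypes. Rela (Entrez 19697, chromosome 19, 5637442 to 5648134 on GRCm38), which encodes p65, gave 15.3 and 16.2 FPKM for wild-type cells against 13.4 and 15.9 FPKM for knockout cells. Knockout replicate 1 was the lowest library, and knockout replicate 2 lay between the wild-type values. Its log2 change was 0.042 (SE 0.15, 95% interval -0.31 to 0.40, limma adjusted p = 0.825), and -0.15 without knockout replicate 2. Rel (Entrez 19696, chromosome 11, 23736847 to 23770969), which encodes c-Rel and is largely a gene of haematopoietic cells, gave 14.2 and 14.6 FPKM for wild-type cells against 13.1 and 15.2 FPKM for knockout cells. The knockout libraries fell on either side of the wild-type pair. The log2 change of Rel was 0.11 (SE 0.14, interval -0.23 to 0.45, limma adjusted p = 0.944), and -0.071 without knockout replicate 2.

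The precursor genes were as close. Nfkb1 (Entrez 18033, chromosome 3, 135584655 to 135691969), the source of p105 and p50, gave 35.3 and 40.2 FPKM for wild-type cells against 35.4 and 35.5 FPKM for knockout cells. Both knockout libraries lay between the wild-type values. For Nfkb1 the log2 change was 0.056 (SE 0.15, interval -0.30 to 0.42, limma adjusted p = 0.854), and it turned to -0.037 when wild-type replicate 1 was left out and to -0.027 when knockout replicate 2 was. Nfkb2 (Entrez 18034, chromosome 19, 46300994 to 46312400), the source of p100 and p52 in the non-canonical pathway, gave 10.6 and 11.3 FPKM for wild-type cells against 9.93 and 11.0 FPKM for knockout cells. The values interleaved. Its log2 change was 0.085 (SE 0.14, interval -0.25 to 0.42, limma adjusted p = 0.895), and -0.066 without knockout replicate 2. Of the 4584 exon bases of Nfkb2 in GENCODE vM21, 299 overlap exons of Psd and 531 those of a non-coding RNA on the other strand. Whether reads were counted by strand is not given in the sources used here, though Psd itself was at 0.04 FPKM or less. The intervals of Rela, Rel, Nfkb1 and Nfkb2 reached from 0.805-fold to 1.37-fold of wild type on the scale of FPKM + 1, relative to the median gene, so larger differences of these subunits fall outside them.

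Relb varied more between replicates than between genotypes. Relb (Entrez 19698, chromosome 7, 19606217 to 19629438), the partner of p52 in the non-canonical pathway, gave 1.87 and 3.66 FPKM for wild-type cells against 1.76 and 2.52 FPKM for knockout cells. Replicate 2 was the higher library in each genotype, and the groups overlapped. The Relb log2 change was -0.091 (SE 0.27, interval -0.74 to 0.56, limma adjusted p = 0.794). It stood at -0.44 without wild-type replicate 1, at 0.25 without wild-type replicate 2 and at 0.16 without knockout replicate 1, so its direction rested on single libraries.

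Nfkbia, the gene of the inhibitor IκBα, was the tested member with separated groups, and its difference did not pass the test. Nfkbia (Entrez 18035, chromosome 12, 55489409 to 55492647) gave 18.6 and 18.1 FPKM for wild-type cells (18.4 ± 0.403, SD, n = 2) against 15.5 and 14.6 FPKM for knockout cells (15.1 ± 0.672, SD, n = 2). Both knockout libraries were lower, as deposited and also after median-ratio scaling, where the values were 17.7 and 17.0 against 15.4 and 16.3. As deposited the log2 change was -0.27, and relative to the median gene -0.13 (SE 0.14, interval -0.46 to 0.20). The limma unadjusted p was 0.091 (adjusted 0.776), and 0.26 after scaling. With no filter on low values it was 0.049 (adjusted p = 0.803), in a fit where 4.54% of genes had an unadjusted p under 0.05. Its relative log2 change stayed between -0.17 and -0.10 when each library was left out in turn.

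Nfkbie, the gene of IκBε, a slower inhibitor of p65 and c-Rel dimers, gave no stable direction. It (Entrez 18037, chromosome 17, 45555700 to 45563169) gave 2.83 and 3.36 FPKM for wild-type cells against 1.87 and 3.79 FPKM for knockout cells. The knockout libraries were the lowest and the highest of the 4. Its log2 change was -0.00031 (SE 0.26, interval -0.63 to 0.63, limma adjusted p = 0.855), and it moved to -0.45 when knockout replicate 2 was left out and to 0.44 when knockout replicate 1 was.

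Tnfaip3, which encodes A20, had its highest value in knockout replicate 1. Tnfaip3 (Entrez 21929, chromosome 10, 19000910 to 19015410) gave 7.17 and 7.79 FPKM for wild-type cells against 10.6 and 6.89 FPKM for knockout cells. As deposited the other knockout library was the lowest of the 4, so the groups overlapped. After median-ratio scaling the values were 6.82 and 7.34 against 10.5 and 7.72, and both knockout libraries lay above. Its log2 change was 0.31 (SE 0.20, interval -0.17 to 0.80), the largest among the tested members. The limma adjusted p was 0.794, and the unadjusted p was 0.42 as deposited and 0.12 after scaling. The change was 0.11 without knockout replicate 1 and 0.51 without knockout replicate 2. The latter fit keeps 1 knockout library, the one with the highest value. Its spread comes from the wild-type libraries, moderated over all tested genes, the lone library being assumed to vary likewise.

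**Figure D2:**
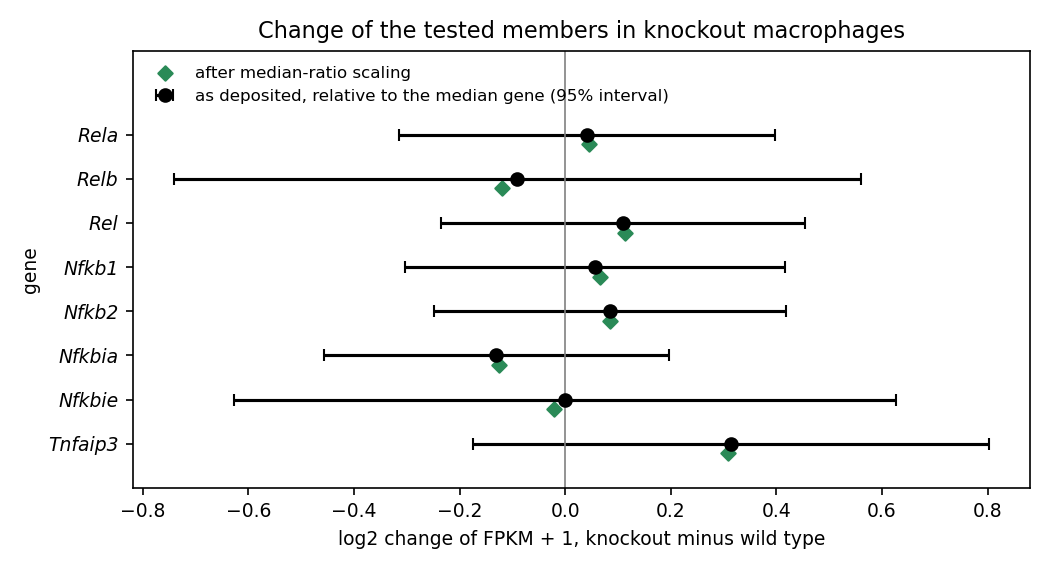
Log2 change of FPKM + 1, knockout minus wild type, of the 8 tested members. Black points with 95% intervals from limma are relative to the median gene, with that median taken as fixed, and green diamonds are after median-ratio scaling. Every interval crosses 0, with the points running from -0.13 for Nfkbia to 0.31 for Tnfaip3.

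The nuclear IκB genes Nfkbiz and Bcl3 were the members with higher values in both knockout libraries, at low levels. Nfkbiz (Entrez 80859, chromosome 16, 55811375 to 55838954), whose product IκBζ is needed in mouse macrophages for part of the secondary response, gave 0.12 and 0.15 FPKM for wild-type cells against 0.28 and 0.42 FPKM for knockout cells. Bcl3 (Entrez 12051, chromosome 7, 19808462 to 19822824), whose product BCL-3 stabilises p50 homodimers on DNA, gave 0.47 and 0.96 FPKM for wild-type cells against 1.15 and 1.23 FPKM for knockout cells. In both genes the knockout pair lay above the wild-type pair, also after median-ratio scaling. Of the 2194 genes that were likewise under the filter and listed in all 4 libraries, 15.1% had both knockout libraries above as deposited and 23.1% after scaling. In the fit with no filter, the limma unadjusted p was 0.017 for Nfkbiz and 0.097 for Bcl3 (adjusted p = 0.803 each), with log2 changes as deposited of 0.25 and 0.37. Both are on the log2(FPKM + 1) scale, which understates changes at such levels. The tables hold no counts, so the number of fragments behind these values is unknown. Of 2475 Bcl3 exon bases, 161 overlap an antisense gene.

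Bcl3 was lowest in wild-type replicate 1, the library in which interferon response genes were also lowest. The type I interferon list, 18 genes, had a median of -1.35 from its own mean in that library after median-ratio scaling, against 0.25, 0.48 and 0.65 in wild-type replicate 2 and the knockout libraries. Nfkbiz did not share this split of the wild-type libraries, with 0.12 and 0.15 FPKM. The part of the interferon difference in the Bcl3 values was not tested. In bulk RNA, fewer cells of a state and less transcript per cell cannot be told apart.

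Set against each other within a library, Nfkbia made up a smaller part of the inhibitor transcripts in both knockout libraries, while the share of every subunit overlapped between the genotypes. Nfkb1 held between 44.3% and 48.1% of the summed FPKM of the 5 subunits, Rela between 18.2% and 19.8%, Rel between 17.0% and 18.9%, Nfkb2 between 13.1% and 13.8% and Relb between 2.39% and 4.26%. Nfkbia held 63.8% and 59.6% of the summed FPKM of the 5 inhibitors in wild type and 52.8% and 54.2% in knockout. Tnfaip3 held 24.5% and 25.7% in wild type and 36.0% and 25.6% in knockout. Bcl3 held 1.61% and 3.17% in wild type and 3.91% and 4.57% in knockout, and Nfkbiz 0.41% and 0.49% against 0.95% and 1.56%. The shares of Nfkbia, lower in knockout, and of Bcl3 and Nfkbiz, higher in knockout, were thus separated, while those of Tnfaip3 and Nfkbie overlapped. The 5 shares of a library add to a fixed whole, so a high Tnfaip3 share, as in knockout replicate 1, lowers the others. No matching frequency over all genes is available for such shares. These within-library shares are descriptions of 2 libraries a genotype and were not tested.

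Ratios of one member to another within a library do not depend on scaling between libraries. Of the 28 pairs among the 8 tested members, 5 had ratios that did not overlap between the genotypes (17.9%), against 29.6% of all pairs of tested genes listed in every library, so separated ratios were not more frequent among the members. The ratio of Rel to Rela was 0.931 and 0.905 in wild type and 0.975 and 0.956 in knockout, and that of Tnfaip3 to Nfkbia 0.385 and 0.431 against 0.682 and 0.473, the knockout pair being higher in each. The other separated pairs were Rel, Nfkb1 and Nfkb2 over Nfkbia, also higher in knockout. Overlap was seen for Nfkbia to Rela, at 1.22 and 1.12 against 1.16 and 0.919, for Nfkb1 to Nfkb2, at 3.33 and 3.57 against 3.57 and 3.22, and for Relb to Rela, at 0.123 and 0.227 against 0.131 and 0.159.

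The balance of inhibitor to subunit transcripts overlapped between the genotypes. The summed inhibitors stood at 0.379 and 0.353 of the summed subunits in wild type and at 0.399 and 0.336 in knockout. Nfkbia alone stood at 0.242 and 0.210 of the summed subunits in wild type and at 0.211 and 0.182 in knockout, so that wild-type replicate 2 fell just below knockout replicate 1.

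**Figure D3:**
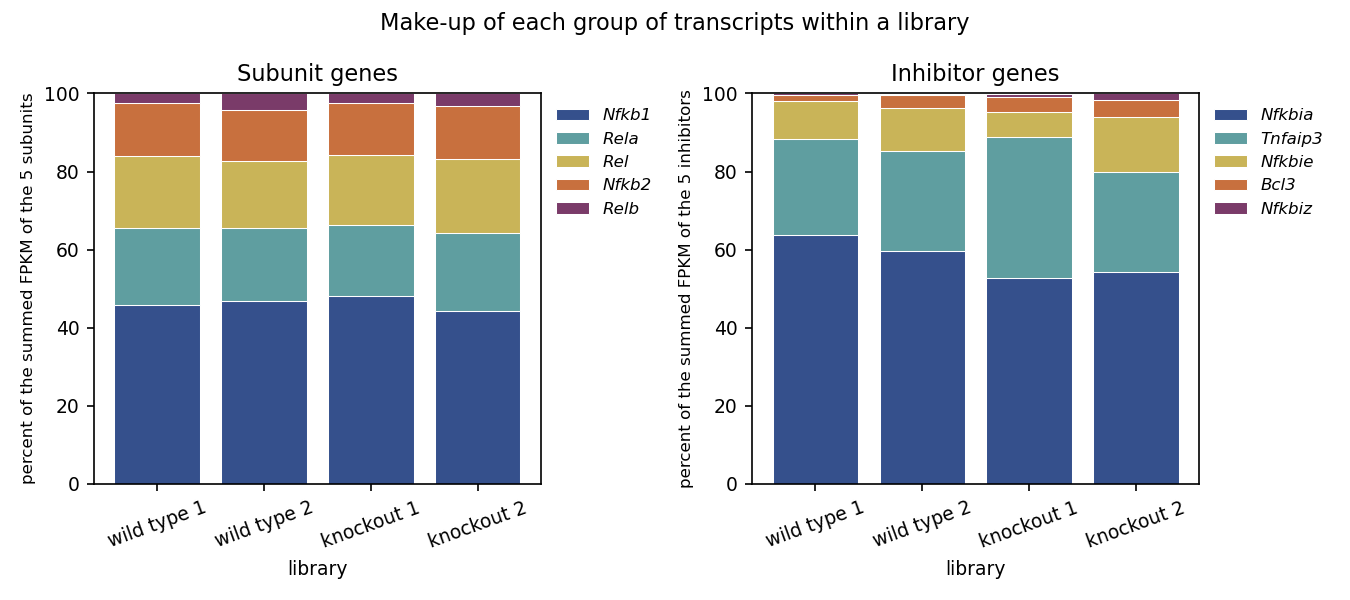
Percent of the summed FPKM of the 5 subunit genes (left) and of the 5 inhibitor genes (right) held by each gene, with 1 bar per library. Nfkb1 holds 44.3% to 48.1% of the subunit bars, and the Nfkbia part of the inhibitor bars runs from 63.8% in wild-type replicate 1 to 52.8% in knockout replicate 1.

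The members differed from one another in how they varied. Likeness was measured as the largest difference, over the 4 libraries, between log2(FPKM + 1) profiles centred on their own means. Rel and Nfkb2 were most alike, at 0.043, followed by Rela and Rel at 0.053. Nfkbie and Tnfaip3 were least alike, at 0.80, and Relb and Tnfaip3 next, at 0.66. Tnfaip3 was highest in knockout replicate 1, where Nfkbie and Relb were lowest. Replicate 2 exceeded replicate 1 in both genotypes for 8 of the 10 members, all except Nfkbia and Tnfaip3, and so for 6 of the 8 tested members. Of all tested genes, 14.2% did so as deposited and 26.8% after scaling, which left the member count at 8 of 10. No label says what a replicate number marks, so libraries are matched here by number alone.

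Other genes of the pathway were read from 6 lists of 91 genes, chosen with earlier results of these data known. Of 71 tested, 0 passed at a limma adjusted p of 0.05, against 0.0211% of all tested genes. An unadjusted limma p under 0.05 was reached by 2 (Ccl4 and Gadd45b), against 4.22% of all tested genes. The median of the 71 was 0.08, with 48 above the median gene. As deposited, both knockout libraries lay below in 19 of the 71 (26.8%, against 35.6% of all tested genes) and above in 2 (2.82% against 4.14%). After median-ratio scaling they lay below in 3 (4.23% against 14.1%) and above in 14 (19.7% against 15%).

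Among ligands that activate NF-κB, Tnf was the 1 tested gene of 9. It gave 9.95 and 13.4 FPKM for wild-type cells against 10.6 and 11.6 FPKM for knockout cells, with both knockout values inside the wild-type range. Il1b was listed in wild-type replicate 2 alone, at 0.13 FPKM, and Cd40lg in no library. Of 12 receptors and proximal adaptors, 11 were tested, with a median of 0.04. Il1r1, under the filter, gave 0.26 and 0.58 FPKM for wild-type cells against 1.49 and 1.19 FPKM for knockout cells. Both knockout libraries were above, as for 15.1% of genes under the filter and listed in every library. After median-ratio scaling they were above too, as for 23.1% of such genes. With no filter its limma unadjusted p was 0.0081 (adjusted 0.803), where 4.54% of genes had one under 0.05. Tlr4, the lipopolysaccharide receptor, was the most abundant, at 53.5 and 56.3 FPKM against 51.5 and 47.0 FPKM. Irak1, a kinase downstream of these receptors, measured 8.66 and 13.2 FPKM against 7.85 and 8.36 FPKM, or -0.22 on the log2 scale (limma adjusted p = 0.776). Tnfrsf1a and Ltbr, receptors for tumour necrosis factor and lymphotoxin, had log2 changes of -0.04 and -0.03.

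No kinase or adaptor gene between receptor and IκB reached an unadjusted limma p under 0.05 (0 of 25 tested), where 4.22% of all tested genes did. All 12 IKK and TAK1 genes were tested, with a median of 0.04 and a range from -0.23 (Map3k7) to 0.28 (Map3k8). The IκB kinase genes Chuk, Ikbkb and Ikbkg, for IKKα, IKKβ and NEMO, had log2 changes of -0.03, 0.12 and 0.01. Ikbkb gave 17.2 and 18.2 FPKM for wild-type cells against 17.8 and 17.1 FPKM for knockout cells, which overlapped as deposited. Map3k14, the NIK kinase of the non-canonical pathway, measured 2.30 and 2.68 FPKM against 3.03 and 2.52 FPKM, and overlapped as deposited, its log2 change of 0.25 having an SE of 0.18 (limma adjusted p = 0.833). Map3k8, for the kinase TPL2 that p105 binds, measured 3.96 and 4.62 FPKM against 4.61 and 5.05 FPKM, which also overlapped as deposited. After median-ratio scaling both knockout libraries lay above for Ikbkb, Map3k14 and Map3k8, as for 15% of all tested genes. For Tab1 they lay below, as for 14.1% of all tested genes. Map3k7, which encodes TAK1, measured 4.13 and 4.93 FPKM against 4.25 and 2.45 FPKM, a log2 change of -0.23, with knockout replicate 2 the low library. Tank, Tab1 and Tbk1 had -0.11, -0.09 and 0.01. Of 14 TRAF, cIAP and ubiquitin-chain genes, 13 were tested, with a median of 0.09 and a range from -0.12 (Tradd) to 0.16. Traf6, Sharpin, Ube2v1 and Birc3 had log2 changes of -0.04, -0.03, 0.09 and 0.12. Traf1, often used as a readout of NF-κB activity, was listed at 0.33 and 0.23 FPKM in the replicate 1 libraries and at 0 in the replicate 2 libraries.

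Of the other IκB proteins and negative regulators, all 14 were tested, with a median of 0.04. Nfkbib, for IκBβ, gave 6.93 and 7.40 FPKM for wild-type cells against 6.68 and 7.63 FPKM for knockout cells, and Nfkbid, for the nuclear IκBNS, 6.60 and 4.90 FPKM against 6.41 and 6.67 FPKM. Nfkbid thus stood well above the other nuclear IκB genes, and its genotypes overlapped as deposited. After median-ratio scaling both its knockout libraries lay above, at 6.34 and 7.48 against 6.28 and 4.62, as for 15% of all tested genes. Its log2 change was 0.31, with an SE of 0.17 (limma adjusted p = 0.776). Usp18, which the interferon list also holds, was low in wild-type replicate 1 alone, at 9.71 FPKM against 22.5 to 29.6 FPKM, a log2 change of 0.83 (SE 0.39). Cyld and Tnip1, a deubiquitinase and an A20-binding protein, had 0.05 and 0.02, and Otulin, Itch and Tax1bp1 had -0.08, -0.06 and -0.05.

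Among the NF-κB lists, target genes had the widest range of log2 changes, on both sides. Of 30 genes, 20 were tested, with a median of 0.17, 15 above the median gene, and values from -0.35 (Ccl3, SE 0.34) to 1.74 (Ccl5, SE 0.96). Both of these genes overlapped between the genotypes. Ccl5 gave 8.31 and 52.0 FPKM for wild-type cells against 153 and 28.4 FPKM for knockout cells. By limma, an unadjusted p under 0.05 was reached by 1 gene that was higher and 1 that was lower as deposited, and by 2 that were higher and 0 that were lower after median-ratio scaling, where 3.15% of all tested genes reached it. The adjusted threshold was passed by 0. Gadd45b, a stress-induced inhibitor of JNK signalling, gave 11.3 and 12.2 FPKM for wild-type cells against 15.9 and 14.3 FPKM for knockout cells. Both knockout libraries were above, with a log2 change of 0.48 relative to the median gene (SE 0.14). As deposited the change was 0.34 (limma unadjusted p = 0.049, adjusted 0.776), and the unadjusted p after scaling was 0.0047. Ccl4, a chemokine gene, measured 71.1 and 63.4 FPKM against 51.4 and 49.7 FPKM. Both knockout libraries were below, with a log2 change of -0.26 (SE 0.16, limma unadjusted p = 0.038, adjusted 0.776), and an unadjusted p of 0.076 after scaling. Irf1, a transcription factor of interferon responses and the second gene to reach that p after scaling, measured 24.5 and 27.6 FPKM against 29.95 and 30.58 FPKM. Both knockout libraries were above under either scaling, with a log2 change of 0.35 (SE 0.15) and a limma unadjusted p of 0.19 as deposited and 0.030 after scaling (adjusted 0.776 and 0.999). Ccl2 was the most abundant, at 858 and 994 FPKM against 1143 and 768 FPKM, and overlapped. Saa3, the acute-phase gene, measured 2.48 and 14.0 FPKM against 41.8 and 9.49 FPKM, and its highest library, knockout replicate 1, was also the highest for Tnfaip3. Il6, Il12b, Nos2 and Cxcl1, markers of strong inflammatory activation, stayed at 0.09 FPKM or less in every library.

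Immediate early genes, which many stimuli induce together with Nfkbia and Tnfaip3, had a median of 0.10 over 14 tested members. An unadjusted limma p under 0.05 was reached by 0 as deposited (against 4.22% of all tested genes) and 1 after scaling (against 3.15%). That gene was Zfp36, for the mRNA-destabilising protein TTP, at 35.9 and 39.1 FPKM against 44.0 and 41.5 FPKM (unadjusted p = 0.26 as deposited and 0.02 after scaling). Atf3 was the most abundant, at 186 and 185 FPKM against 198 and 186 FPKM, and Jun and Myc had log2 changes of -0.04 and -0.06. The interferon list stood apart, with all 18 genes above the median gene and a median of 1.26. Of these, 5 were higher at an unadjusted limma p under 0.05, as were 67 of all 9501 tested genes. The adjusted threshold was passed by 0 of the list, wild-type replicate 1 being the low library. Mx1, an antiviral GTPase gene, had a log2 change of 1.35 (SE 0.37), Ifit2 1.33 and Mx2 1.03. Bst2, for the tether that holds virus particles, was the most abundant of the list, with 0.52.

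**Figure D4:**
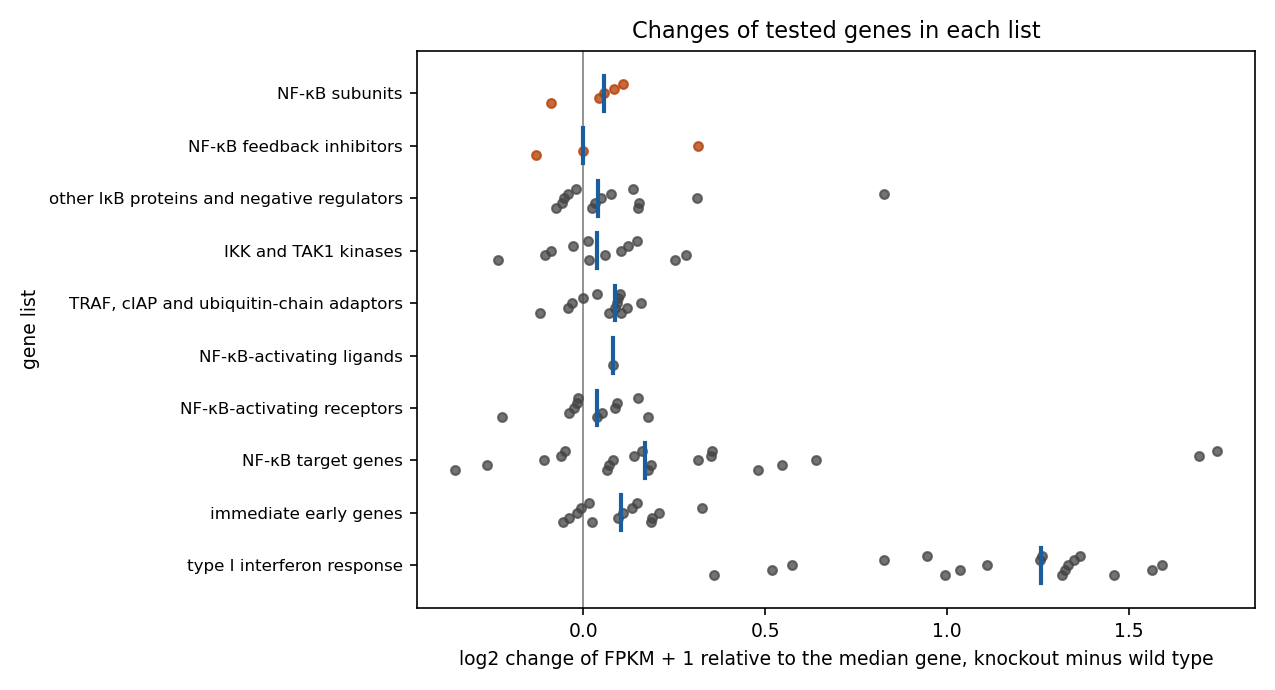
Log2 change of FPKM + 1 relative to the median gene, knockout minus wild type, of each tested gene in 10 lists. Each point is a gene, orange for the 8 tested members and grey for other lists, and blue bars are list medians. The medians of the NF-κB lists lie between -0.00031 and 0.17, while the interferon list lies at 1.26.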

How the data were processed

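The authors deposited 1 table of FPKM values per library, to 2 decimals, per the file headers. The submitters' processing notes list RSEM, Bowtie2, StringTie and HISAT and the mm10 build, with no versions or roles. The annotation is not given in the sources used here. A gene missing from a table was taken as 0. Depth is unknown, so replicate spread is the measure of precision. Entrez numbers were paired with symbols from RefSeq for GRCm38.p6 (15094 of 15114 matched). Genes averaging 1 FPKM or more over all 4 libraries were compared as log2(FPKM + 1) with limma 3.58.1 in R 4.3.3. The model was moderated with a mean-variance trend, two-sided, with Benjamini-Hochberg adjustment over 9501 genes and a threshold of 0.05. The procedure was checked on simulated data with larger changes than any member showed, so the check does not cover changes of the members' size. Alternatives covered scaling, pseudocount (0.1), filter, replicate block, variance prior and each library left out. The members and lists were chosen with earlier results of these data known. All 10 members are named. From each other list the text names the 3 tested genes with the smallest unadjusted p, the most abundant gene and fixed genes. Il1r1, Irf1, Ccl3, Ccl5, Map3k8, Psd, Lyz2, Fcgr1 and the ligand, target and marker genes at or near 0 were named after their values were seen.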

Additional observations from a re-analysis of the deposited data

How the results depend on the processing

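Over 11 alternatives, 0 of 86 member values passed the threshold (lowest limma adjusted p = 0.395), and 75 kept the direction reported. With no filter on low values, Rela stood at -0.0394 and Nfkb1 at -0.0246 relative to the median gene of that fit. Their changes as deposited stayed at -0.098 and -0.084, so only the median gene had moved. Median-ratio and upper-quartile scaling, a pseudocount of 0.1 and a minimum of 5 FPKM turned none. Leaving out 1 library gave Rela -0.15 to 0.23, Relb -0.44 to 0.25, Rel -0.0711 to 0.28, Nfkb1 -0.0373 to 0.14, Nfkb2 -0.0659 to 0.23, Nfkbie -0.45 to 0.44, Nfkbia -0.17 to -0.10 and Tnfaip3 0.11 to 0.51. Genes of the members and pathway lists at an unadjusted p under 0.05 numbered 2, against 5 with no filter, 1 without the variance trend and 1 to 5 with a library left out. Genes past the threshold over all genes numbered 2, against 2 to 43 with a library left out (43 without wild-type replicate 2) and 14 with the replicate block, 6 higher and 8 lower, none of them in the members or pathway lists. The cause was not tested. Deviations of same-numbered libraries correlated at 0.0698 across genes, and no label says what a number marks, so the block was not used. Depth is unknown, and the log scale and 2-decimal values limit Nfkbiz and Bcl3.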
